A study of Mus musculus with 4 samples.

Results

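The genes for 9 transcription factors of the macrophage lineage (Spi1, Cebpa, Cebpb, Runx1, Runx2, Runx3, Maf, Klf4 and Egr2) were followed through ATAC-seq of macrophages labelled wild-type (WT) and H3.3cKO. They were chosen by name, 9 of the 55450 genes of the GENCODE M21 annotation, and every peak that overlapped a gene's body or the 20 kb on either side of it was counted as belonging to that gene. Overlapping peaks of the 4 deposited peak lists were merged into regions, which gave 96 regions at these genes out of 71243 in all. ATAC-seq uses the Tn5 transposase to cut open chromatin, so a peak marks DNA that proteins can reach.

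Bone marrow-derived macrophages (BMDMs) were grown from the marrow of C57BL/6 mice of 8 to 10 weeks in medium with 20% L929-conditioned medium, a source of M-CSF, for 6 to 8 days. Both groups carried floxed H3f3a and H3f3b (H3f3a fl/fl:H3f3b fl/fl), the pair of genes that encode histone H3.3, a variant laid down outside DNA replication. WT mice had no Cre. H3.3cKO mice (cKO below) also carried LysM cre/cre, in which Cre is made from the Lyz2 locus in monocytes, macrophages and granulocytes, so that the genes are removed only as cells enter the myeloid lineage and some cells may keep a copy. Each genotype had 2 biological replicates, each with its own list of peaks.

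PU.1 (encoded by Spi1) and the C/EBP factors open macrophage enhancers together, and RUNX1 helps to set up Spi1 expression in blood progenitors. MAF, KLF4 and EGR2 act later, MAF in the quiescence and identity of mature macrophages, KLF4 in monocyte development and EGR2 in the response to interleukin-4. Such genes are usually flanked by many enhancers, and the long Runx1 and Runx2 genes hold many of theirs in introns.

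The lists held 55742 and 64939 peaks in WT replicates 1 and 2, and 51955 and 60884 in cKO replicates 1 and 2. Replicate 2 was the longer list in both genotypes. The unit used here was the percentile of a peak's area within its own list, in which 100 is the largest peak, because the deposited areas grow with sequencing depth. A region was called gained if it was in both cKO lists and no WT list, lost if it was in both WT lists and no cKO list, shared if it was in all 4 lists, and partial otherwise. A shared region was called lower or higher in cKO if both cKO percentiles lay outside the WT values on that side and the means differed by at least 10 points. With 2 libraries against 2, an exact two-sided permutation test cannot give a p below 0.333, so no single region can pass a test and the calls are descriptions.

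The libraries had open start sites at macrophage genes and lacked them at most genes of other lineages. All 6 macrophage markers, Csf1r, Adgre1, Itgam, Cd68, Mertk and Lyz2, had a peak over a start site in all 4 lists, whereas none of the 3 B cell, 3 T cell, 3 erythroid and 2 fibroblast markers had one in any list. Of 5 granulocyte markers 1 (S100a8) had one in all 4 lists, and both dendritic cell markers, Flt3 and Zbtb46, did so. For Lyz2 the percentiles were 96.1 and 99.0 in the WT lists, against 57.4 and 59.4 in cKO, and it is the locus into which Cre is inserted. The WT and cKO percentiles also did not overlap at 6 other markers. With 2 libraries against 2, a share of 0.333 of label arrangements gives no overlap without any difference between genotypes. Of all shared regions, 18.9% were lower and 11.4% higher in cKO without overlap and by at least 10 points. Csf1r (73.7 and 85.3 to 56.4 and 61.4), Mertk (89.3 and 92.8 to 73.9 and 79.1), S100a8 (76.5 and 78.3 to 50.3 and 64.0) and Zbtb46 (69.0 and 74.1 to 39.6 and 56.5) stood lower in cKO, and Flt3 (24.2 and 37.3 to 47.0 and 53.9) and Cd68 (91.2 and 89.7 to 92.7 in both) higher. The part of these shifts in the results below was not tested. An exon region of H3f3a was lost (percentiles 5.02 and 19.1 in WT), while the H3f3a promoter region stood at 96.0 and 97.2 in WT, against 93.4 and 94.1 in cKO. The H3f3b exon region, which holds the start of H3f3b-201, stood at 94.2 and 95.5 in WT, against 87.0 and 81.4 in cKO, and the region at the farther upstream start of H3f3b-202 at 23.7 and 34.3, against 28.7 and 42.5. Peaks over H3f3b were thus present in both libraries labelled cKO and do not show its removal, and the study notes that deletion of this gene was complete in some cKO samples and partial in others.

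At the 9 genes together, most open regions were kept in cKO, and those that differed were mostly weaker or missing there. In the full lists this was so over all regions too. With every list cut to the length of the shortest, the shares over all regions were close. They were then 7.04% gained against 7.30% lost, and 16.9% of shared regions higher against 16.4% lower. Of the 96 regions, 56 were shared (58.3%, against 62.9% of all regions), 11 lost, 3 gained and 26 partial (27.1%, against 26.1%). Fewer cells with an open site and less cutting per cell cannot be told apart in such bulk samples. Lost regions made up 11.5% at these genes against 7.25% of all regions, and gained regions 3.125% against 3.72%. With lists cut at their median area the order of the lost shares turned, to 2.33% (1 region) at these genes against 7.06% of all. Of the 56 shared regions 11 were lower in cKO (19.6%, against 18.9% of all shared regions) and 3 were higher (5.36%, against 11.4%). The share of lower regions was thus close to the background. With lists cut at their median area it was 34.5% (10 of 29) against 19.7%, but percentiles were ranked again after that cut. There 10 points span about 5 points of the full lists, and only 4 of the 11 lower regions kept their call. The others had peaks under the cut and were no longer shared, so they could not keep it. The median difference of the shared regions was -2.29 points at these genes and -1.10 points over all regions. Of the 56, 40 lay below 0 (71.4%, against 58.1% of all shared regions).

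Runx1 and Runx2 supplied 17 of the 22 lost or lower regions, with 47 of the 96 regions. They were set apart because of these counts, so the contrast with the other 7 genes partly follows from that choice. At Runx1 and Runx2, 8 of 47 regions were lost (17.0%, against 7.25% of all regions). Of their 26 shared regions 9 were lower (34.6%, against 18.9% of all shared regions), with 1 higher. At the other 7 genes 3 of 49 were lost (6.12%), 3 were gained, and 2 of 30 shared regions were lower (6.67%) and 2 higher. Introns held 20 of the 22. Among intronic regions the lost shares were close, at 7 of 38 (18.4%) for Runx1 and Runx2 against 3 of 20 (15.0%) for the other 7 genes, while 9 of 19 shared ones (47.4%) against 1 of 9 (11.1%) were lower. Of the 58 intronic regions at the 9 genes 10 were lost (17.2%, against 8.88% of all intronic regions) and 10 of 28 shared ones were lower (35.7%, against 23.0%). Of the 16 promoter regions none was lost and 13 were shared (81.25%), of which none was lower or higher; over all promoter regions 3.06% were lost and 82.3% shared, and 9.89% of the shared ones were lower and 5.44% higher.

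**Figure D1:**
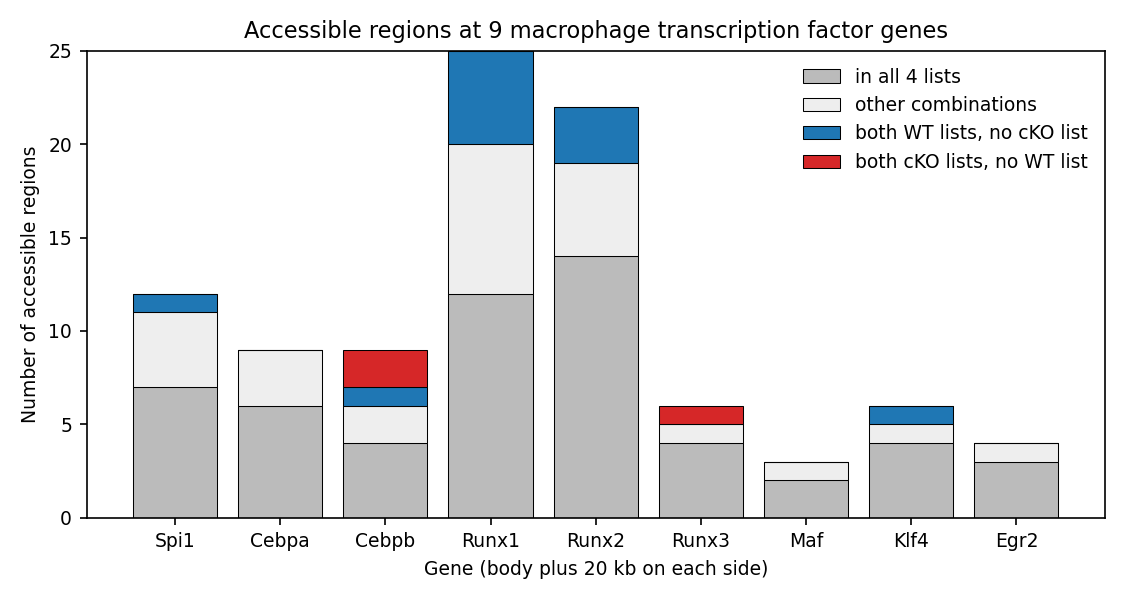
Number of regions (y axis) at each of the 9 genes (x axis), stacked by the lists in which they were found. Runx1 with 25 regions and Runx2 with 22 held 8 of the 11 lost regions, and gained regions appeared at Cebpb (2) and Runx3 (1).

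Single libraries and list length moved these counts. In lists cut to the length of the shortest, 4 regions were gained (4.94%, against 7.04% of all regions) and 10 lost (12.3%, against 7.30%). Of the shared regions 7 were higher (13.5%, against 16.9% of all shared regions) and 9 lower (17.3%, against 16.4%). Without WT replicate 1, lost regions numbered 23 (24.0%, against 14.4% of all regions), and 7 of the 11 lost regions had a percentile under 10 in that library, close to the caller's limit. The 12 regions found only in WT replicate 2 count as lost in that setting by definition, since 1 list then stands for WT. Leaving out WT replicate 2 gave 5 gained (5.88%, against 7.93% of all) and 8 higher regions (14.3%, against 19.4%). Leaving out cKO replicate 1 gave 6 gained (6.19%, against 9.16%) and 9 higher (14.5%, against 17.4%). Omitting cKO replicate 2 left 1 higher (1.72%, against 9.19%) and 17 lower, at 29.3% both here and over all regions. Peaks at the 9 genes numbered 76 and 91 in WT, against 64 and 72 in cKO. Per 10000 peaks of the list these were 13.6 and 14.0 in WT (13.8 ± 0.268, SD, n = 2) and 12.3 and 11.8 in cKO (12.1 ± 0.348, SD, n = 2), and the groups did not overlap. A share of 0.333 of label arrangements gives such a split. Peak numbers were mainly lower in cKO at Runx1 (20 and 25 to 13 and 14) and Runx2 (20 and 21 to 14 and 18). They were also lower without overlap at Spi1 (10 and 12 to 8 and 9) and Klf4 (5 and 6 to 4 in both). At Cebpa, Cebpb, Runx3, Maf and Egr2 the WT and cKO numbers overlapped or touched.

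At Maf, Cebpa and Klf4 the region over the main start was above percentile 90 in all 4 lists. The starts of Spi1-201, Klf4-202 and Runx3-202 and the distal starts of Runx2, among others, had no peak in any list. The Maf start region (chr8:115705323-115708722, mm10) stood at 99.7 and 99.9 in WT, against 99.5 and 99.8 in cKO. The Cebpa start region (chr7:35118011-35119985) stood at 97.7 and 97.6 in WT, against 96.7 and 97.5 in cKO. At Klf4 (chr4:55532115-55533480) the values were 93.4 and 94.95 in WT, against 91.1 and 94.1 in cKO. WT and cKO values overlapped at Maf and Klf4, and the Cebpa means differed by less than 1 point. The scale leaves little room at the top, so a fall in cutting at such strong peaks would move the percentile little.

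The Cebpb and Egr2 start regions were slightly less strong. The region at the Cebpb start (chr2:167688176-167690227) stood at 89.2 and 90.1 in WT, against 85.5 and 92.5 in cKO, with the WT values between those of cKO. The region at the starts of Egr2-201 and 3 other transcripts (chr10:67536870-67537974) stood at 89.0 and 92.0 in WT, against 88.6 in both cKO libraries. No region holding an annotated start of the 9 genes was lost.

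**Figure D2:**
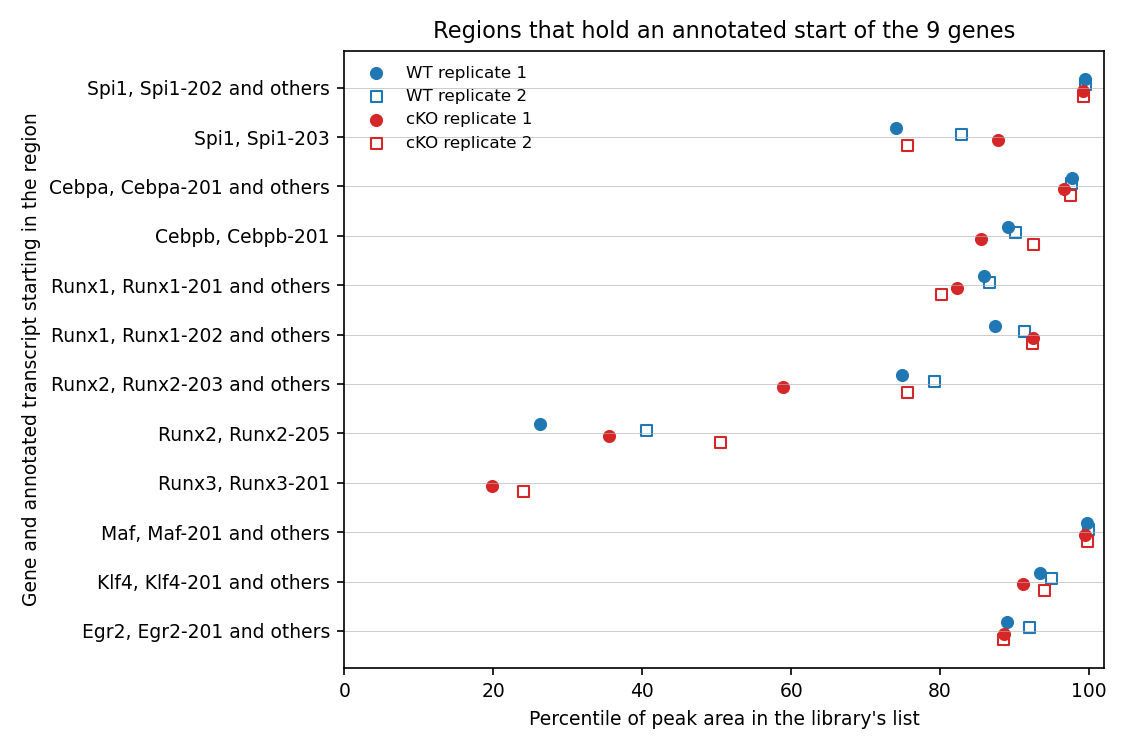
Percentile of peak area (x axis) in the 4 libraries for each region that holds an annotated transcript start of the 9 genes (y axis). Blue marks WT and red cKO, circles replicate 1 and squares replicate 2. The Maf and Cebpa start regions and the upper Spi1 region lie above 96 in all 4 libraries, and the Runx3-201 region has cKO points only.

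Spi1 encodes PU.1, the ETS-family factor on which myeloid development depends. Its window held 12 regions, of which 7 were shared, 1 was lost and 4 were partial. The strongest (chr2:91081870-91085051) stood at 99.5 and 99.6 in WT, against 99.2 and 99.3 in cKO. It contains the starts of Spi1-204 and Spi1-202 and lies 11.0 to 14.2 kb upstream of the start of Spi1-201, the interval in which the upstream regulatory element, the best-known Spi1 enhancer, has been described. The region just inside the gene from Spi1-201 (chr2:91096415-91098568), which holds the start of Spi1-203, stood at 74.1 and 82.8 in WT, against 87.8 and 75.6 in cKO, so that the genotypes overlapped. In cKO replicate 1 it was 1 peak of 2049 bp. Each other list had 2 separate peaks there, of which only the larger was ranked, so the value of 87.8 is not like the others.

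The exception at Spi1 was an intronic region (chr2:91086182-91086806), 9.29 to 9.91 kb upstream of Spi1-201. It went from 70.9 and 73.5 in WT to 54.5 and 56.0 in cKO, a difference of -16.9 points with replicates within 3 points of each other. This call held in equal-length lists and in lists cut at their median area. The 101 bases around its summit, shown because it was the only lower region of this gene, held no match to any of the 7 motifs searched.
Spi1 lower region, chr2:91086483-91086583, + strand: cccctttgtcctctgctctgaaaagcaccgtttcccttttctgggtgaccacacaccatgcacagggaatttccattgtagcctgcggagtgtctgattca
The lost region of Spi1 (chr2:91087898-91088110) was weak in WT, at 2.55 and 15.9, and was no longer called lost in equal-length lists.

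Cebpa encodes C/EBPα, which drives the step from progenitor to granulocyte and monocyte fates. Its window held 9 regions, of which 6 were shared and none was gained or lost. A pair of intergenic regions downstream of the gene were higher in cKO, as was only 1 other region at the 9 genes, in Runx2. The region 5.62 kb downstream of the start (chr7:35124742-35125074) stood at 14.3 and 27.8 in WT, against 33.7 and 36.5 in cKO, a difference of 14.0 points. The region 7.93 kb downstream (chr7:35127003-35127443) stood at 15.4 and 23.9 in WT, against 24.1 and 46.8 in cKO, a difference of 15.8 points, although cKO replicate 1 exceeded WT replicate 2 by less than 1 point. Its call was lost without cKO replicate 2 (4.44 points) and when a peak had to cover 50% of the region, and that of its neighbour at 5.62 kb was lost without WT replicate 1 (7.28 points). Farther on, 8.61 kb downstream, a partial region was absent in WT replicate 1 and stood at 5.45 in WT replicate 2 and 13.35 and 31.7 in cKO. All 3 were weak to middling peaks, and none of the higher calls held in lists cut at their median area. The summit of the region at 5.62 kb holds a RUNX match, AACCACA, in capitals.
Cebpa higher region, chr7:35124885-35124985, + strand: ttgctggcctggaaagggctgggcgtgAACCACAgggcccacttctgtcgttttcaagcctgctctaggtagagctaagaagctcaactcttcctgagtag

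A myeloid enhancer of Cebpa has been described farther downstream than the 20 kb window reaches. In a window of 50 kb, a shared region 37.3 kb downstream of the start (chr7:35156288-35156933) stood at 61.8 and 70.3 in WT, against 67.7 and 72.9 in cKO, which overlap. A region 44.5 kb downstream (chr7:35163644-35164021) went from 62.4 and 63.1 in WT to 6.96 and 19.9 in cKO, a difference of -49.4 points. The nearest coding start of either region belongs to Slc7a10. Both were picked after their values were seen.

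Cebpb encodes C/EBPβ, the C/EBP factor of inflammatory and mature macrophages. Its window held 9 regions, of which 4 were shared, 2 gained, 1 lost and 2 partial. Both gained regions lay just upstream of the gene, in an intron of the overlapping gene Tmem189. The nearer one (chr2:167687560-167687932), 1.17 kb upstream of the start, stood at 33.6 and 46.4 in the cKO lists. The farther one (chr2:167686331-167686805), 2.35 kb upstream, stood at 12.5 and 43.7. Another region in the same intron, 3.47 kb upstream, was shared at 15.8 and 23.7 in WT, against 19.2 and 22.2 in cKO, so the gained regions lie between it and the promoter. Both gains were also called with equal-length lists and with the stricter cover rule. Both lay below the median area, so neither could pass a cut there. The nearer region is shown as the stronger gain of the set.
Cebpb gained region, chr2:167687758-167687858, + strand: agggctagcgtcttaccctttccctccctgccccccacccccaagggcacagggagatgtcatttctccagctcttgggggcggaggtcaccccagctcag
Each gained Cebpb region had a C/EBP match (TTGCNNAA, either strand) within 100 bp of its summit, outside the bases printed, as had 12.3% of all regions. The lost region of Cebpb (chr2:167701507-167701784) was weak in WT, at 3.70 and 18.6.

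**Figure D3:**
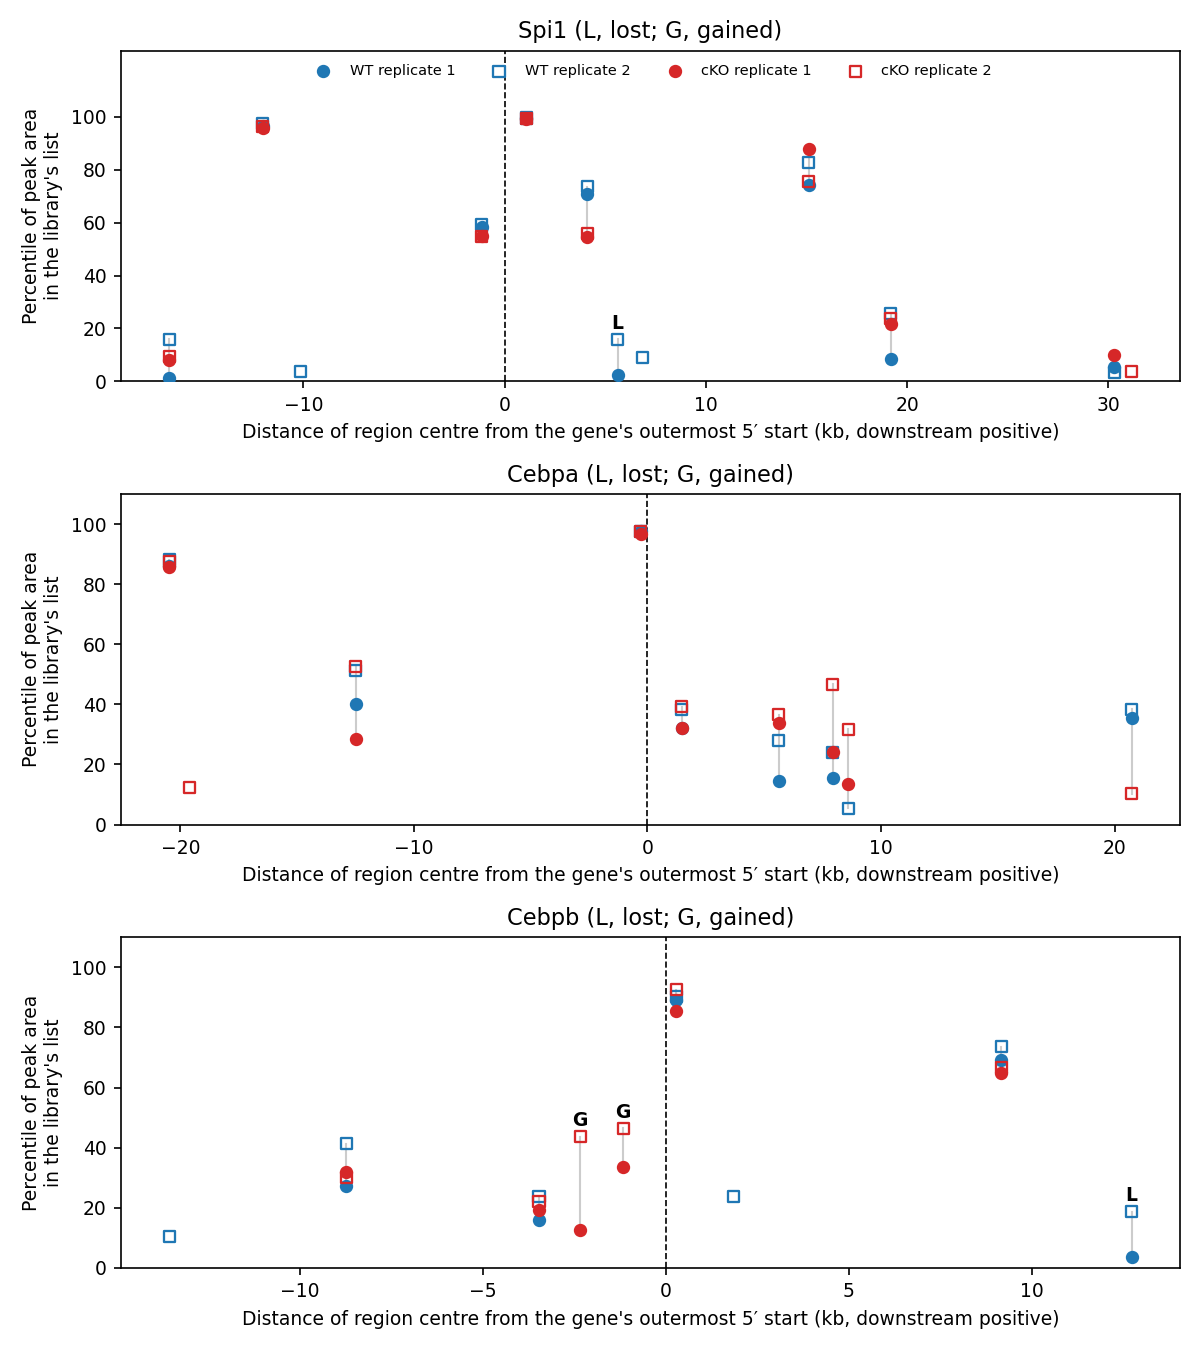
Percentile of peak area (y axis) of every region at Spi1, Cebpa and Cebpb against the distance of its centre from the gene's outermost annotated start (x axis, kb), with WT in blue, cKO in red, circles for replicate 1 and squares for replicate 2. L marks lost and G gained regions; at Spi1 the zero is the start of Spi1-204. The 2 gained Cebpb regions have red points only, beside a promoter region at 85.5 to 92.5 in all libraries.

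Runx1, whose protein pairs with CBFβ and is needed for definitive blood formation, had the most lost or lower regions of the 9 genes. Peak numbers in its window were 20 and 25 in WT, against 13 and 14 in cKO. Of 25 regions 5 were lost and 8 partial, and of 12 shared regions 4 were lower and none higher, with a median difference of -7.17 points. Thus 9 of 25 (36.0%) were lost or lower and none was gained or higher. Among the 297 protein-coding windows with at least 20 regions the median share of lost or lower regions was 20.0%, and 46 of them (15.5%) had a share as large as that of Runx1.

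Both Runx1 promoters stayed open. The distal promoter region (chr16:92825212-92826491) stood at 85.9 and 86.6 in WT, against 82.2 and 80.2 in cKO. The proximal promoter region (chr16:92697136-92698967), 128 kb downstream, stood at 87.4 and 91.4 in WT, against 92.4 in both cKO libraries. The differences were -5.07 and 3.03 points. Thus the distal values were lower and the proximal values higher in cKO without overlap, by less than 10 points each.

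Between these promoters lie the 4 shared regions that were lower in cKO. The region 39.0 kb downstream of the distal start (chr16:92786870-92787501) went from 78.0 and 83.2 to 47.8 and 53.0, a difference of -30.2 points. The region 112 kb downstream (chr16:92713705-92714150) went from 47.9 and 58.0 to 24.0 and 19.4, a difference of -31.2 points and the largest among the shared regions of the 9 genes. The region at 25.1 kb (chr16:92800699-92801391) went from 78.5 and 84.6 to 64.1 and 68.2. Its close neighbour at 24.3 kb moved less, from 75.6 and 81.2 to 70.3 and 71.9. The region 2497 bp downstream (chr16:92823375-92823929) went from 69.6 and 69.1 to 49.9 and 62.7. All 4 calls held in equal-length lists. Only that at 25.1 kb held with lists cut at their median area, and only its peaks lay above the median in every list. The call at 2497 bp was lost without cKO replicate 1 (-6.72 points instead of -13.1) and when peaks were ranked by their summit p-value (-5.32 points). The summits of the pair with the largest differences are shown, the first with a MAF match (TGCTGAC) in capitals and the second with none of the 7 motifs.
Runx1 lower region at 39.0 kb, chr16:92787228-92787328, + strand: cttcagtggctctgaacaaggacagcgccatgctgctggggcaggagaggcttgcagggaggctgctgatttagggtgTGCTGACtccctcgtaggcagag
Runx1 lower region at 112 kb, chr16:92713949-92714049, + strand: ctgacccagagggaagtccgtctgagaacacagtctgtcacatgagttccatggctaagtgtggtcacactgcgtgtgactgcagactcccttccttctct

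Of the 5 lost Runx1 regions, the strongest lay 149 kb downstream of the distal start, in the intron beyond the proximal promoter (chr16:92676510-92676948). It stood at 52.7 and 52.4 in WT, had no peak in either cKO list, and was the only lost region of the 9 genes that was still called lost with lists cut at their median area. It was also the only lost region above the median area in both WT lists. The shared region 255 bp away (chr16:92675373-92676254) stood at 84.9 and 87.0 in WT, against 77.7 and 77.8 in cKO. The lost region at 95.01 kb (chr16:92731007-92731277) stood at 31.5 and 41.2 in WT. The other 3 had WT values of 9.76 and 27.6 (chr16:92692229-92692449), 2.40 and 26.5 (chr16:92724590-92724870) and 5.76 and 27.2 (chr16:92597766-92597998, in the 3′ flank). They were thus weak in WT replicate 1, and the last 2 were not called lost in equal-length lists.
Runx1 lost region at 149 kb, chr16:92676660-92676760, + strand: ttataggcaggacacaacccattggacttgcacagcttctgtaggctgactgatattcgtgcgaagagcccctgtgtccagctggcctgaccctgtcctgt

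Runx2, known mainly from bone formation and also expressed in myeloid and dendritic cells, had 22 regions, with 20 and 21 peaks in WT, against 14 and 18 in cKO. Of these 14 were shared, 3 lost and 5 partial, and of the shared ones 5 were lower and 1 higher. No list had a peak over its distal starts, and the proximal start region (chr17:44735155-44736750) stood at 74.9 and 79.2 in WT, against 58.9 and 75.6 in cKO, which overlap. The strongest region of the window (chr17:44776646-44777999), at 93.9 to 97.5, lies at the start of Supt3, a gene that overlaps Runx2, so regions nearby cannot be assigned to either.

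The strongest of the lower Runx2 regions (chr17:44663243-44664547), 151 kb downstream of the distal start, went from 85.9 and 91.1 in WT to 70.8 and 75.7 in cKO. The region at 201 kb (chr17:44613727-44614380) went from 65.9 and 71.6 to 56.1 and 50.2. Both calls held with equal-length lists and with lists cut at their median area. When a peak had to cover 50% of the region, the region at 151 kb was called lost instead of lower. Its cKO peaks spanned 471 and 496 bp of the 1305 bp. The region at 96.1 kb (chr17:44718492-44718997) went from 46.8 and 56.7 to 34.9 and 46.5, with less than 1 point between the genotypes, and was not called lower in equal-length lists, without WT replicate 2 (-6.12 points), without cKO replicate 1 (-5.28 points) or by the summit p-value.

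Another 2 lower regions of this window lie in introns of Supt3. That within both genes (chr17:44783034-44783526) went from 63.7 and 67.4 to 46.5 and 56.4, and that upstream of Runx2 (chr17:44831215-44831554) went from 35.2 and 47.2 to 8.73 and 31.5. Both calls were lost without cKO replicate 1, where the differences were -9.18 and -9.70 points instead of -14.1 and -21.1. The latter holds a PU.1 match near its summit, read on the minus strand and shown in capitals. The higher region (chr17:44770945-44771228) went from 6.84 and 7.66 to 15.6 and 29.6 and holds 2 AP-1 matches (TGACTCA); at least 2 were found near the summit in 1.28% of all regions. It was no longer called higher in equal-length lists or without cKO replicate 2 (8.33 points).
Runx2 lower region with PU.1 match, chr17:44831367-44831467, + strand: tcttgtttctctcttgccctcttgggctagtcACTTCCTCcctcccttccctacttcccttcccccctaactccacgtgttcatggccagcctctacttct
Runx2 higher region with AP-1 matches, chr17:44770999-44771099, + strand: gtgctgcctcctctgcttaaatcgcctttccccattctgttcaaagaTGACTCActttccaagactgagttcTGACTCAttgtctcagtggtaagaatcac
The 3 lost Runx2 regions were weak in WT: 9.08 and 21.2 (chr17:44601732-44602011), 11.4 and 15.0 (chr17:44685524-44685830), and 5.95 and 14.3 (chr17:44691604-44691835).

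Runx3, the RUNX factor of T cells and of some resident macrophages, differed from its paralogs in that its distal promoter was open in cKO lists only. The gained region (chr4:135120373-135120678) covers the start of Runx3-201 and stood at 19.9 and 24.1 in cKO. It was also called gained with equal-length lists, and no peak was left there in lists cut at their median area. The proximal start of Runx3-202 had no peak in any list. The gained region holds 2 RUNX matches with a single base between them, shown in capitals, upstream of the start. Among all regions 0.453% had at least 2 such matches within 100 bp of the summit.
Runx3 gained region, chr4:135120490-135120590, + strand: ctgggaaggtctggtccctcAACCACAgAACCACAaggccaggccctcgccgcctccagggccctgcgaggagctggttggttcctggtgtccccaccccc
The other Runx3 regions were 4 shared, none of them higher or lower, and 1 partial. The strongest (chr4:135181814-135182217), 61.4 kb from the start and beyond the gene's 3′ end, stood at 64.8 and 72.6 in WT, against 68.1 and 67.8 in cKO. The intronic region at 8.38 kb went from 28.2 and 42.1 to 15.5 and 30.6, a difference of -12.1 points with overlapping groups.

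Maf had 3 regions, of which 2 were shared. Beside the very strong start region, the region 1.78 kb upstream (chr8:115709285-115709865) went from 30.6 and 40.3 in WT to 12.6 and 14.5 in cKO, a difference of -21.9 points. It was not called lower with equal-length lists or with lists cut at their median area. Its summit holds a C/EBP match on the minus strand, in capitals.
Maf lower region, chr8:115709572-115709672, + strand: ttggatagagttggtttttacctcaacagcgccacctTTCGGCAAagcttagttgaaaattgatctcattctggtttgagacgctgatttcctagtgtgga

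Klf4, the zinc-finger factor that drives monocyte differentiation, had 6 regions, of which 4 were shared and 1 was lost. The lost region (chr4:55530851-55531759) was at 909 bp the widest of the 11 lost regions and was centred in an intron 1.16 kb downstream of the main start. Its edge lay just short of the start of Klf4-202 (chr4:55531770), which had no peak in any list. The lost region stood at 39.0 and 48.7 in WT, was called lost also with equal-length lists, and lay between a start region and an exon region that were both kept. The exon region (chr4:55530053-55530756) stood at 75.7 and 78.3 in WT, against 74.6 and 78.3 in cKO. The summit of the lost region is shown as that of the longest stretch missing from both cKO lists, and it holds none of the 7 motifs.
Klf4 lost region, chr4:55531414-55531514, + strand: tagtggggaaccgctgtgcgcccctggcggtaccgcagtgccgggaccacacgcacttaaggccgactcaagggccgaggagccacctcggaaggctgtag

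Egr2 had 4 regions, 3 of them shared, and none was gained, lost, higher or lower. Besides its start region, a region in the gene's 5′ part (chr10:67535875-67536475) stood at 56.9 and 64.6 in WT, against 52.2 and 61.1 in cKO. The strongest region of the window (chr10:67547771-67549785) lies at the start of the neighbouring gene Ado and went from 95.1 and 96.0 to 88.0 and 91.1, without overlap but by less than 10 points. A region 16.5 kb upstream was partial, at 24.4 in WT replicate 2 and 37.7 and 48.3 in cKO.

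**Figure D4:**
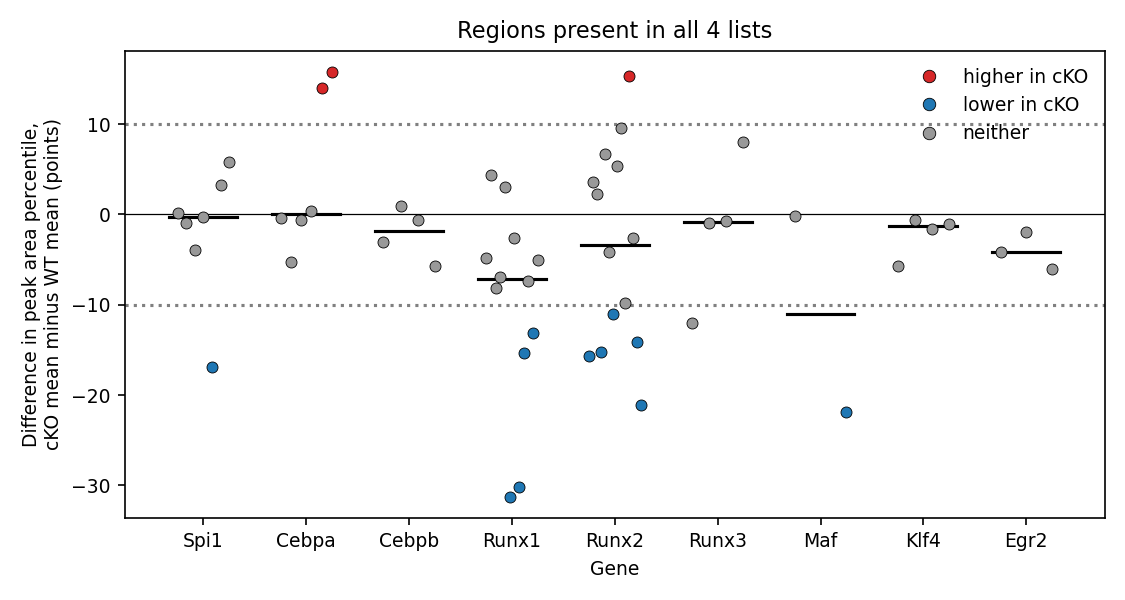
Difference between the cKO and WT mean percentile (y axis, points) for each of the 56 shared regions by gene (x axis), ordered by position within a gene. Black bars are medians, dotted lines mark 10 points, and colours mark regions whose cKO values both lay outside the WT values by at least that difference; Runx1 and Runx2 hold 9 of the 11 lower regions.

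The same counts were made for 2 further lists of factor genes. At 20 other myeloid factors, such as Irf8, Mitf and Zeb2, 15 of 177 regions were lost (8.47%) and 6 gained (3.39%), and of 113 shared regions 20 were lower (17.7%) and 8 higher (7.08%), with a median difference of -1.68 points. Irf8, needed for the monocyte and dendritic fates, held 3 of those lost and 6 of those lower regions, among 12 regions in all. At 12 factors of progenitors and other blood lineages, such as Gata1, Pax5 and Tcf7, there were 34 regions, with 3 lost (8.82%), none gained, and 3 lower and 1 higher of 22 shared. Pax5 had no region.

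Finally, 7 short motifs were sought on both strands within 100 bp of each summit. C/EBP (TTGCNNAA) matched 18 of the 96 regions (18.75%, against 12.3% of all regions) and AP-1 (TGACTCA) 19 (19.8%, against 13.5%). PU.1 (GAGGAAGT) matched 3 (3.125%, against 11.0%) and RUNX (AACCACA) 6 (6.25%, against 8.38%). MAF (TGCTGAC), whose end can form the start of an AP-1 match, was found in 8 (8.33%, against 5.66%), and KLF (GGGTGTGG) in 3 (3.125%, against 2.31%). EGR (GCGTGGGCG) was found in none, and in 0.213% of all regions. Among the 11 lost regions C/EBP and AP-1 each matched 1 and KLF 2, and none held a PU.1 or RUNX match. A match describes the letters only, and the motifs were not tested against the differences between genotypes.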

How the data were processed

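Sample titles gave the group and replicate number of each library. Alignment by the authors to mm10 used Bowtie2 2.5.1, and they called peaks in each of the 4 libraries separately with Genrich at default settings. Read filters, removal of duplicates and any shift of read ends were not given in the sources used here. The deposited score used was the area under the significance curve of a peak, always above the caller's limit of 200. The deposited −log10 p-value at the summit served in an alternative ranking. Another deposited score column, capped by the caller, was not used. Read depth is unknown, so no interval is given for a single peak, and a site just below the limit is missing from a list. The authors' differential test needs reads and was not applied.

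Peaks overlapping by at least 1 bp were merged (Python 3.11.15, pandas 2.3.3, numpy 2.4.6, scipy 1.17.1). A region took the percentile of the largest peak of a library in it. Windows and start sites came from the comprehensive GENCODE M21 annotation of mm10, and regions were classed by their centre as promoter (1 kb upstream to 100 bp downstream of any transcript start), exon, intron or intergenic. Sequences came from the RefSeq assembly GRCm38.p6, the same build as mm10, with pysam 0.24.0. Printed sequences span 50 bases on either side of the summit. The 9 genes, the other lists and the motifs were chosen with earlier results of these data known. In the list of other myeloid factors, 1 gene is not reported here and was left out of its counts. Named were all members, the deleted genes, every gained, lost, higher or lower region, the start regions, and the strongest shared region of each gene; others are named as chosen later or as neighbours of these. Alternatives were lists of equal length, lists cut at their median area, a peak cover of 50%, windows of 10 and 50 kb, region centres, other difference thresholds, the summit p-value, replicate blocks, and leaving out each library.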

Additional observations from a re-analysis of the deposited data

How the results depend on the processing

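With lists cut at their median area, 0 gained regions and 1 lost region remained, with 29 shared, 1 higher and 10 lower. The cKO minus WT difference in peaks per 10000 shrank from -1.75 to -0.193. This cut leaves fewer peaks by construction. Percentiles were ranked again after it, so 10 points there span about 5 points of the full lists. Equal-length lists gave 7 higher regions. A 50 kb window, which holds more regions, gave 6 gained, 89 shared, 6 higher and 18 lower. The shares over all regions do not depend on the window (3.72% gained, and 11.4% of shared regions higher and 18.9% lower). A threshold of 5 points gave 18 lower regions, and 20 points gave 4 lower and 0 higher ones. The shares over all shared regions at these 2 thresholds were not computed, so these counts cannot be set against a background. Leaving out 1 library at a time gave 3 to 6 gained, 12 to 23 lost, 56 to 62 shared, 1 to 9 higher and 10 to 17 lower regions, median differences of -5.79 to -0.271 points and differences in peaks per 10000 of -2.00 to -1.51. Leaving out a library loosens the rules for lost and gained, because 1 list then stands for its genotype. Lost and gained counts can thus rise by definition. The cause of the other shifts was not tested. With the replicate numbers as a block, the values were 3 higher and 12 lower regions, a median of -2.29 points and -1.75 peaks per 10000 (-1.32 for number 1 and -2.19 for number 2), and no call changed by over 1.5 times; the numbers are only labels, and the deviations of same-numbered libraries correlated at 0.295 over the 44820 shared regions. Of the lower or higher regions named, none changed sign under any alternative that kept the region shared, but most alternatives could not change it. The sign was free to change only with equal-length lists or the summit p-value. Replicate blocks and the 5-point threshold must also keep every such call. With these included, 118 values kept the call and 21 lost it. In equal-length lists 3 of 3 gained, 5 of 11 lost, 2 of 3 higher and 9 of 11 lower regions kept their call. With 2 libraries a genotype and unknown depth, small differences were not detectable.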
